A study of Mus musculus with 214 samples.

Results

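A set of genes that hepatocytes transcribe for secretion into blood plasma were followed in mouse liver after exposure to N-nitrosodimethylamine (NDMA), a methylating carcinogen that liver enzymes activate. They are 10 genes (Alb, Ttr, Trf, Apoa1, Apoa2, Apob, Serpina1c, Ahsg, Ambp and Fgb) that were chosen by symbol as abundant plasma proteins. No measured value set the choice, but earlier results of these data were known when it was made. All 10 are among the 18647 genes listed for WT mice and the 19540 listed for Mgmt-/- mice. Hepatocytes make most of the protein in plasma, and much of their messenger RNA codes for a short list of such proteins, which enter the endoplasmic reticulum as they are translated and leave the cell through the Golgi. Their transcription depends on factors of the HNF1, HNF4, FOXA and C/EBP families, and several are known as positive or negative acute phase genes, whose transcripts rise or fall in inflammation. In juvenile mice the liver is still growing and the makeup of the plasma is changing.

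Both genotypes were C57BL6 mice homozygous for the RaDR recombination reporter and the GPT mutation reporter, and the Mgmt-/- mice also lacked Mgmt, the repair enzyme that removes methyl groups from the O6 position of guanine, in every tissue. Pups of both sexes were injected intraperitoneally with NDMA, 3.5 mg/kg on postnatal day 8 and 7 mg/kg on postnatal day 15, or with saline at the same ages. A litter as a whole was given NDMA or saline, and the labels do not say which mice shared one, so mice of a group may not all be independent. Collection followed the second dose by 1 day, 2 days, 5 days, 10 weeks or 10 months. 3′ digital gene expression libraries gave normalized counts, that is, counts of each gene divided by 1 size factor for its library. The saline groups held 21 mice at day 1, 8 at day 2, 7 at day 5, 8 at week 10 and 10 at month 10 in WT, and 12, 7, 6, 8 and 12 in Mgmt-/-. The NDMA groups held 26, 8, 8, 8 and 13 WT mice and 12, 8, 8, 8 and 13 Mgmt-/- mice. Recovered reads per library ran from 150038 to 4791649 in WT and from 713584 to 7740710 in Mgmt-/- mice. The genotypes were normalized separately, so levels are compared within a genotype, and those of Mgmt are set side by side with no test. Mgmt had a median of 45.8 normalized counts in WT and 1.15 in Mgmt-/- libraries, where it reached at most 9.67, and the genotypes did not overlap.

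The sequence just before the start of transcription is shown for 4 genes with different outcomes below: Alb and Serpina1c, which were lower after NDMA in Mgmt-/- mice, and Fgb and Ambp, which did not pass the test there. Each window runs from 150 bases before to 10 bases after the RefSeq start in GRCm38.p6, 5′ to 3′ on the strand of the gene. Alb lies at chr5:90460720-90460879 on the plus strand, and on the minus strand lie Serpina1c at chr12:103904941-103905100, Fgb at chr3:83049854-83050013 and Ambp at chr4:63154163-63154322. Capitals mark exact matches, on either strand, to GTTAAT (the half-site of HNF1, a liver transcription factor), CCAAT (the CCAAT box) or TATAAA (the TATA box).
Alb: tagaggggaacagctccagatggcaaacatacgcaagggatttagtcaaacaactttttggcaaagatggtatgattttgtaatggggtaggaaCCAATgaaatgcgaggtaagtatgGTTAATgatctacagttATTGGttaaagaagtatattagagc
Serpina1c: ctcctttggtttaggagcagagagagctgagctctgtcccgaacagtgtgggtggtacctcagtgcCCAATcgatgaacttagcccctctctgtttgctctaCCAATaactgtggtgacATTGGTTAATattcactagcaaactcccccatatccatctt
Fgb: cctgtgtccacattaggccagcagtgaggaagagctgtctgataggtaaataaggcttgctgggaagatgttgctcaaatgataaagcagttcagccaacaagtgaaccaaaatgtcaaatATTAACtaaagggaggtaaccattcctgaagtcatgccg
Ambp: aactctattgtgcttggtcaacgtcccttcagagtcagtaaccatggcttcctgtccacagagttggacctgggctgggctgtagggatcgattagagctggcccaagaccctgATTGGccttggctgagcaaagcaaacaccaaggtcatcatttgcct

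A RefSeq promoter was matched for 8 of the 10 genes, Ttr and Trf being the others. The HNF1 half-site was found in 3 of these 8 (Alb, Serpina1c and Fgb), against 3.91% of 27025 promoters cut to the same window. It began 32 bases before the start in Alb (position -32) and at -27 in Serpina1c, and on the opposite strand at -29 in Fgb. The CCAAT box was found in 3 of 8 (Alb, Serpina1c and Ambp), against 26.1% of promoters, and 1 match in Serpina1c shares a base with the HNF1 half-site. TATAAA was found in 1 of 8 (Apob), against 8.39% of promoters. Apoa1 and Ahsg, also lower at day 1 in Mgmt-/- mice, had no match to any of these motifs, and neither did Apoa2. The half-site thus stood before some genes that were lower and before Fgb, but not before others that were lower. A match is a description of these letters only.

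Several libraries were left out or are doubted. Of the 8 Mgmt-/- saline libraries at day 5, 2 carried kidney transcripts (Kap, a kidney androgen-regulated gene, at 6147 and 7562 normalized counts) and were left out. The 10 genes held 0.277% and 0.169% of all normalized counts there, against 22.9% to 27.4% in the other 6. In all other libraries Kap reached at most 13.9. Separately, 8 libraries stood apart from their own group, with over 25% of well expressed genes more than 2-fold from the median of the other libraries of that group, where the median library had 4.24%. They were kept, and values without them are given where leaving them out changed whether any of the 10 genes passed a threshold.

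Of these 8, 4 were WT NDMA libraries of female mice with under 300000 reads, 1 each at day 2, day 5, week 10 and month 10. The 10 genes held a larger share of their counts than in any other library of the same group (22.8%, 24.2%, 23.8% and 18.1%, against at most 20.6%, 22.3%, 18.2% and 17.7%). Another was a WT saline library at day 1. The other 3 were Mgmt-/- libraries of male mice in which Apob, whose level differed with age in saline livers, went against the label. The saline library D209001, labelled week 10, had Apob at 3219 normalized counts, where the other 7 week 10 saline libraries had 800 to 1005 and the 12 month 10 saline libraries 2138 to 3448. The NDMA libraries D209016 and D209018, labelled month 10, had Apob at 755 and 762, where the other 11 of their group had 2283 to 3941 and the 8 week 10 NDMA libraries 660 to 1084. Whether labels were exchanged was not tested. In 2 further WT NDMA libraries at day 1 the sex genes went against the label.

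The summed share of the 10 genes was lower after NDMA in Mgmt-/- mice at the 3 early times. At day 1 it was 23.5% ± 4.46 (SD, n = 12) of all normalized counts in saline and 17.2% ± 4.02 (n = 12) in NDMA livers, a difference of -6.29 percentage points, and all 12 NDMA livers were below the saline median. At day 2 it was 26.3% ± 2.43 (n = 7) in saline and 20.6% ± 1.29 (n = 8) in NDMA livers, and at day 5 24.6% ± 1.76 (n = 6) and 20.6% ± 0.681 (n = 8). At both times all 8 NDMA livers were below the lowest saline liver. At week 10 the shares were 14.2% ± 1.81 and 12.1% ± 1.39 (n = 8 each), with 8 of 8 NDMA livers below the saline median and 1 below the lowest saline liver. Without the doubted saline library D209001 the week 10 saline share was 14.7% ± 1.22 (n = 7) and 4 of 8 NDMA livers were below the lowest, so the groups overlapped either way. At month 10 the shares were 15.0% ± 1.28 (n = 12) and 14.8% ± 2.64 (n = 13). Day 1 is the time in Mgmt-/- mice that spans 2 library batches, and the share was lower in each, from 26.2% to 19.5% (8 of 8 NDMA livers below the lowest saline liver) and from 18.0% to 12.6% (3 of 4).

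**Figure D1:**
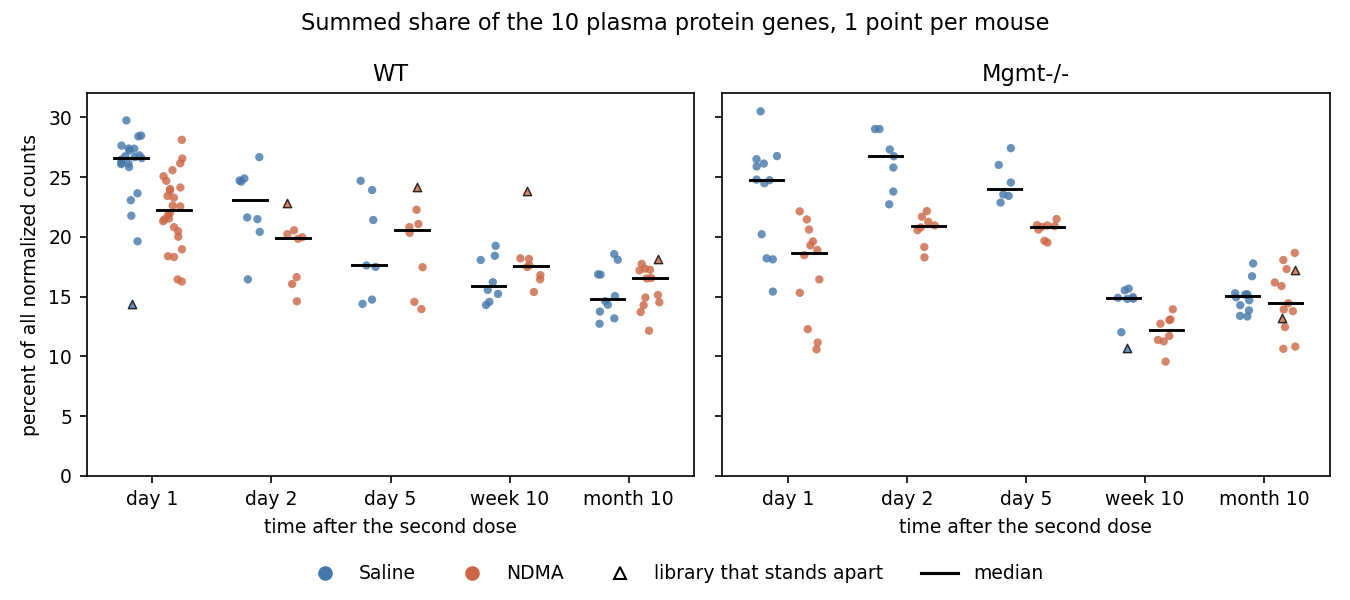
Summed share of the 10 plasma protein genes, in percent of all normalized counts of a library, for each mouse, by collection time and treatment, with WT in 1 panel and Mgmt-/- in the other. Bars are group medians, triangles are the 8 libraries that stood apart, and the 2 libraries with kidney transcripts are omitted. The Mgmt-/- NDMA livers at day 2 and day 5 lie below every saline liver of their time, and the triangles in WT NDMA groups lie at the top of their groups.

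In WT mice the mean summed share was lower after NDMA at day 1 and day 2. It was 25.5% ± 3.47 (n = 21) in saline and 22.2% ± 3.02 (n = 26) in NDMA livers at day 1, with 25 of 26 NDMA livers below the saline median. None was below the lowest saline liver, which was the library that stood apart, and without it 5 of 26 were. At day 2 the share was 22.6% ± 3.28 and 18.8% ± 2.77 (n = 8 each), and at day 5 19.2% ± 4.20 (n = 7) and 19.3% ± 3.65 (n = 8). At day 5 the male batch and the female batch went different ways, from 23.3% to 21.1% and from 16.1% to 17.5%, but the second direction rested on D215014, a library with few reads. Without it the female batch went from 16.1% to 15.3% (n = 4 and 3), and the mean over both batches was 18.6% ± 3.34 (n = 7), while the NDMA median (20.3%) was above the saline median (17.6%), with unequal numbers of each batch in the groups. At day 2 the NDMA share without its library with few reads was 18.3% ± 2.43 (n = 7). At week 10 the mean share was 16.4% ± 1.89 in saline and 18.0% ± 2.54 in NDMA livers (n = 8 each), or 17.2% ± 1.01 (n = 7) without the library with few reads, and 7 of 8 NDMA livers were above the saline median. By batch it went from 18.0% to 17.9% in males and from 14.9% to 18.1% in females (16.2% without that library). At month 10 it was 15.4% ± 2.06 (n = 10) and 15.8% ± 1.82 (n = 13), lower after NDMA in 2 of 3 batches. Sex and batch cannot be told apart in WT mice at day 2, day 5 and week 10. Lower transcript levels in whole liver could reflect fewer hepatocytes or less RNA per hepatocyte, and these cannot be told apart here.

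Each gene was then tested with limma within genotype and time, with sex and batch as terms. A gene is named as lower or higher where the Benjamini-Hochberg adjusted p over all tested genes was under 0.05 and the log2 fold change on the log2(normalized count + 1) scale was beyond 0.58 either way. At day 1 in Mgmt-/- mice 5 of the 10 genes were lower and none higher, against 8.64% of 10055 genes that were lower. With the adjusted p alone 7 were lower, against 11.8% of genes. By batch, 6 were lower in the larger (8 mice a treatment), against 17.4% of genes called either way, and none passed in the smaller (4 a treatment), against 5.5%, where all 10 log2 fold changes were negative. The median log2 fold change of the 10 was -0.66 at day 1, -0.49 at day 2 and -0.40 at day 5, against 0.02, 0.03 and 0.03 over all tested genes.

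Alb codes for serum albumin, the main protein and general carrier of plasma. At day 1 its lowest, median and highest normalized counts in Mgmt-/- mice were 55287, 104713 and 140518 in saline and 29953, 64323 and 79696 in NDMA livers, a log2 fold change of -0.82 ± 0.14 (SE, adjusted p = 1.13e-05). All 12 NDMA livers were below the saline median and 5 of 12 below the lowest saline liver, so the groups overlapped. The day 1 ranges pool both library batches, and saline livers of the smaller batch had the lower summed share. The lowest saline value of Alb came from that batch, as did those of Trf, Ttr, Apoa1, Serpina1c and Ahsg. Trf, the iron carrier transferrin, had 20362, 43724 and 121311 in saline and 11736, 28312 and 50696 in NDMA livers (-0.75 ± 0.15, adjusted p = 0.000305). Ttr, which carries thyroxine and retinol-binding protein, had 49318, 85033 and 133524 in saline and 42741, 58912 and 77856 in NDMA livers, and its change of -0.55 ± 0.14 passed the p threshold alone (adjusted p = 0.00303). The 3 carriers shared a pattern in which NDMA livers filled the lower part of the saline range and reached below it.

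Among the apolipoproteins at day 1, Apoa1, the main protein of high-density lipoprotein, went from 38844, 79083 and 112225 in saline to 18703, 47737 and 70981 in NDMA livers (-0.80 ± 0.17, adjusted p = 0.000331). Apoa2, the second protein of high-density lipoprotein, went from 51700, 77293 and 92666 to 33905, 45536 and 69239 (-0.57 ± 0.14, adjusted p = 0.00172). It passed the p threshold but narrowly missed that of the fold, with 7 of 12 NDMA livers below the lowest saline liver. Apob, the structural protein of very-low-density and low-density lipoprotein, had medians of 785 and 597 and did not pass the test (-0.39 ± 0.20, adjusted p = 0.168).

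Serpina1c, an alpha-1-antitrypsin gene that inhibits neutrophil elastase, had the largest change of the 10 at day 1. Its normalized counts were 2371, 7023 and 9828 in saline and 1062, 3962 and 6285 in NDMA livers (-0.99 ± 0.19, adjusted p = 0.000122), and all 12 NDMA livers were below the saline median. Ahsg, the calcium-binding protein fetuin-A, went from 22442, 69070 and 113348 to 15510, 38073 and 60322 (-0.76 ± 0.15, adjusted p = 0.000172). Ambp, whose product is cut into alpha-1-microglobulin and the inhibitor bikunin, had medians of 5088 and 5044 and a change of -0.09 ± 0.14 (adjusted p = 0.700). Fgb, the fibrinogen beta chain that is cut to form clots, had medians of 11089 and 14148 and a change of 0.11 ± 0.17 (adjusted p = 0.698). Every NDMA liver lay within the saline range of Fgb, while for Ambp 3 of 12 lay below the lowest saline liver and 0 above the highest.

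**Figure D2:**
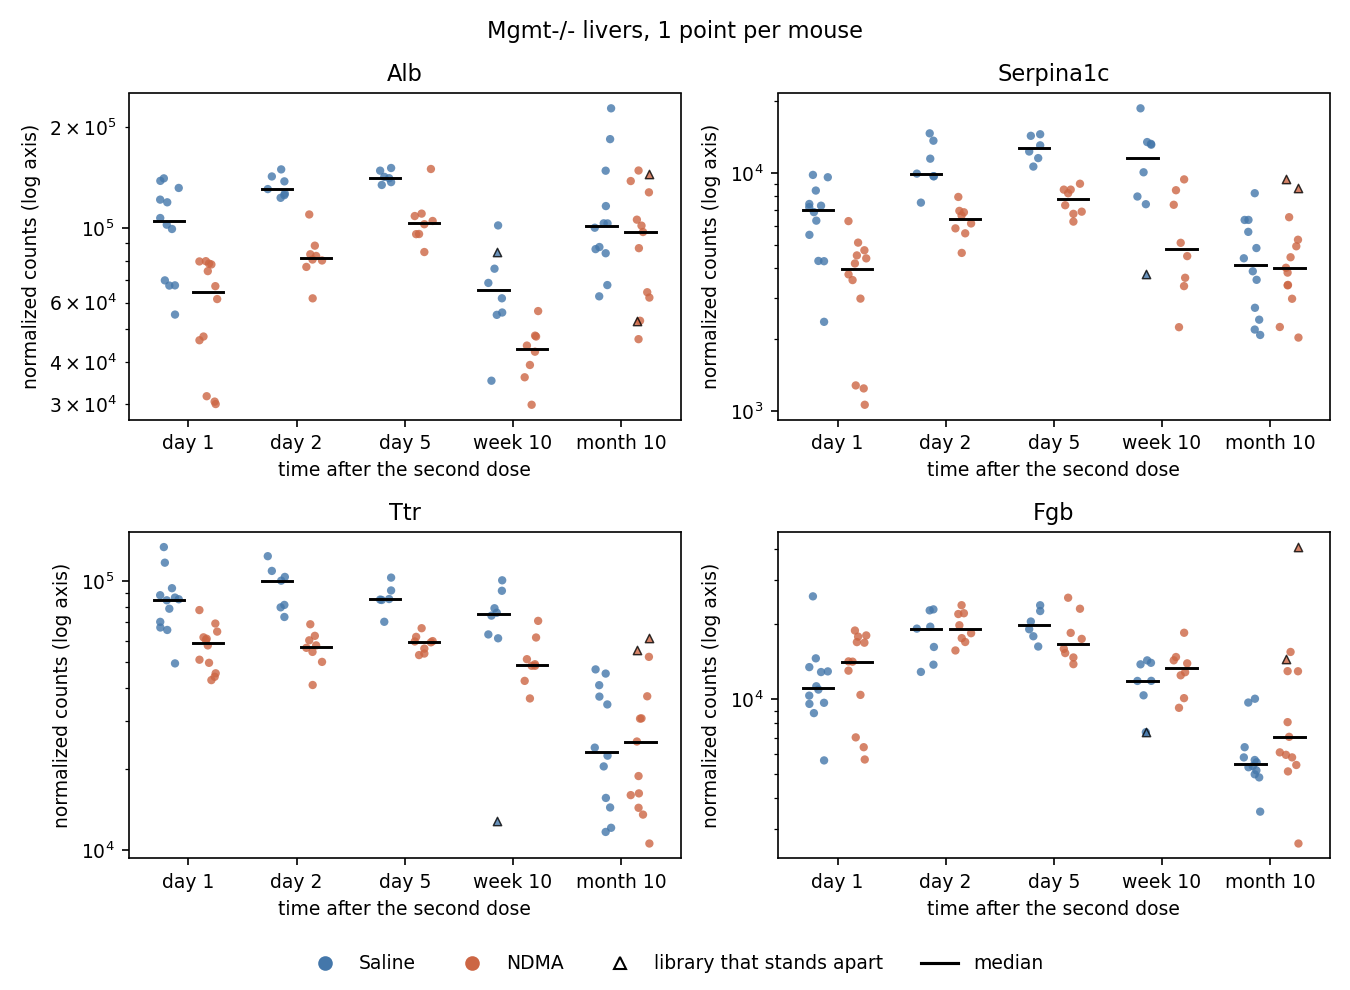
Normalized counts of Alb, Serpina1c, Ttr and Fgb (log axis) in each Mgmt-/- liver, by collection time, with saline and NDMA side by side. Bars are group medians, triangles are the libraries that stood apart, and the 2 libraries with kidney transcripts are omitted. Ttr has no overlap between treatments at day 2 and day 5, while the Fgb medians at day 2 are 19174 and 19079.

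At day 2 in Mgmt-/- mice 4 of 10 genes were lower, Alb, Ttr, Apoa2 and Serpina1c, and none higher, against 7.5% of 9469 genes lower. Alb had 122986, 130580 and 149420 normalized counts in saline and 61785, 81587 and 109729 in NDMA livers (-0.69 ± 0.09, adjusted p = 2.41e-06). Ttr had 73382, 100137 and 123499 in saline and 40993, 56951 and 68948 in NDMA livers (-0.76 ± 0.12, adjusted p = 1.85e-05). Apoa2 had 76774, 90750 and 100125 in saline and 44124, 59082 and 73484 in NDMA livers (-0.63 ± 0.10, adjusted p = 2.87e-05). For these 3 genes every NDMA liver was below every saline liver, which held for 3.02% of genes. Serpina1c went from 7515, 9952 and 14695 to 4619, 6391 and 7939 (-0.78 ± 0.13, adjusted p = 6.7e-05), with 7 of 8 NDMA livers below the lowest saline liver.

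Apoa1 (-0.55 ± 0.17, adjusted p = 0.0249) and Trf (-0.42 ± 0.11, adjusted p = 0.00481) passed the p threshold alone at day 2, which made 6 genes lower, against 10.5% of genes. Ahsg, among the 5 lower genes a day before, was at a median of 88015 in saline and 72686 in NDMA livers (-0.25 ± 0.12, adjusted p = 0.145). Fgb had 12854, 19174 and 22904 in saline and 15670, 19079 and 23802 in NDMA livers (0.12 ± 0.12, adjusted p = 0.546), and Ambp had medians of 5425 and 6992 (0.23 ± 0.10, adjusted p = 0.105). The Ambp value was above the saline median in all but 1 of the 8 NDMA livers, but it did not pass the test.

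At day 5 in Mgmt-/- mice 1 gene, Serpina1c, passed both thresholds and was lower, against 6.71% of 9306 genes, and 5 were lower by the adjusted p alone, against 9.32%. Serpina1c had 10654, 12705 and 14567 in saline and 6255, 7778 and 9023 in NDMA livers (-0.73 ± 0.11, adjusted p = 1.06e-05). Ttr had 70427, 85377 and 102804 in saline and 52960, 59284 and 66662 in NDMA livers (-0.56 ± 0.09, adjusted p = 7.33e-05). Trf had 55160, 67157 and 89126 in saline and 41601, 48988 and 53324 in NDMA livers (-0.50 ± 0.10, adjusted p = 0.000807). In these 3 genes no NDMA liver reached the lowest saline liver, as in 3.23% of all genes. At day 1, which pooled library batches where day 2 and day 5 each had 1, that was so for 0 of 10 members and for 0.457% of genes.

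Alb at day 5 had 134314, 141337 and 150859 in saline and 84845, 103795 and 149832 in NDMA livers (-0.43 ± 0.11, adjusted p = 0.00348). 7 of the 8 NDMA livers lay below every saline liver, and the eighth, at 149832, was near the top of the saline range. Apoa2 (-0.37 ± 0.10, adjusted p = 0.00618) passed the p threshold alone and Apoa1 (-0.48 ± 0.19, adjusted p = 0.0865) did not. The kidney libraries bear on this time only, and with them included all 5 of these log2 fold changes turned positive.

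At week 10 in Mgmt-/- mice 1 gene was lower, again Serpina1c, against 3.88% of genes. It had 3782, 11623 and 18722 normalized counts in saline and 2251, 4786 and 9411 in NDMA livers (-1.01 ± 0.29, adjusted p = 0.0232). Without D209001, the saline library with the Apob level of older mice, 3 genes were lower, against 4.89% of genes. Serpina1c then had 7402, 13165 and 18722 in saline livers (-1.28 ± 0.17, adjusted p = 1.07e-05). Apoa2 had 74938, 91095 and 101760 in saline and 38081, 47357 and 73345 in NDMA livers (-0.93 ± 0.14, adjusted p = 3.2e-05). Ttr had 61143, 76118 and 100450 in saline and 36533, 48642 and 70980 in NDMA livers (-0.62 ± 0.15, adjusted p = 0.00368). Alb was at -0.61 ± 0.23 (adjusted p = 0.0874) with the library and at -0.52 ± 0.16 (adjusted p = 0.0230) without it, when Apoa1 (-0.44 ± 0.14, adjusted p = 0.0299) also passed the p threshold alone.

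At month 10 in Mgmt-/- mice the direction differed, with Apoa1 higher, against 4.75% of genes, and none of the 10 lower. Apoa1 had 5532, 13589 and 21649 in saline and 8676, 20310 and 49667 in NDMA livers (0.58 ± 0.19, adjusted p = 0.0419). Trf, with 14452, 22156 and 25550 in saline and 18886, 27952 and 60444 in NDMA livers, was higher by the adjusted p alone (0.47 ± 0.16, adjusted p = 0.0495), 2 genes in all, against 5.28%. Without D209016 and D209018, which had Apob at the level of younger mice, neither passed (Apoa1 0.45 ± 0.17, adjusted p = 0.107, and Trf 0.39 ± 0.15, adjusted p = 0.0998) and 0 of 10 genes were called, against 4.39% of genes higher. Fgb in the NDMA group spread from 2635 to 40715, with the highest value in D209016.

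**Figure D3:**
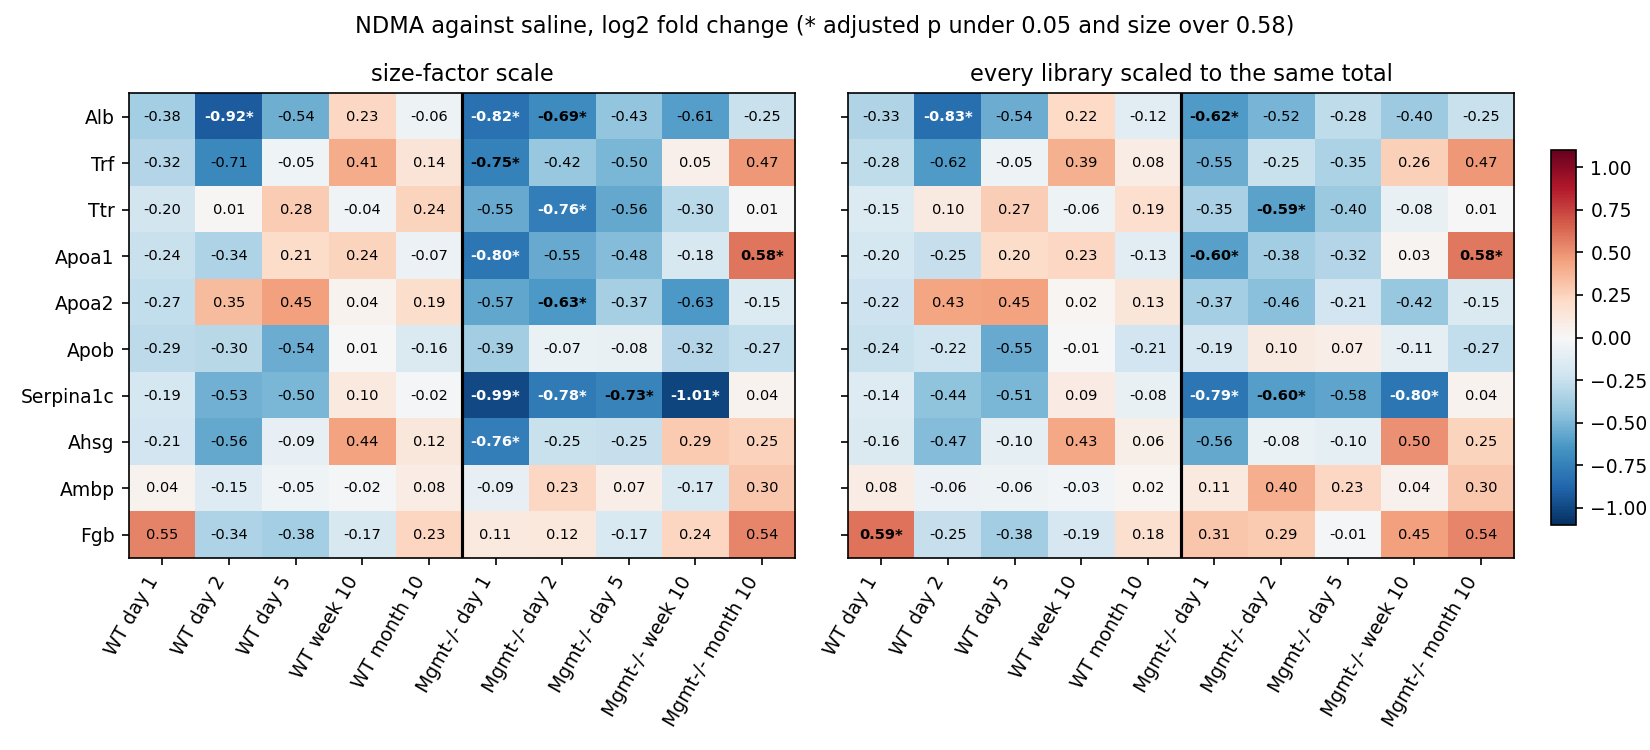
Log2 fold change, NDMA against saline, of each of the 10 genes in the 10 comparisons of genotype and time, on the size-factor scale and on the scale of a common library total. Asterisks mark genes past both thresholds. The lowest value on the size-factor scale is -1.01, for Serpina1c in Mgmt-/- mice at week 10, and Fgb is positive at day 1 in both genotypes, at 0.55 in WT and 0.11 in Mgmt-/-.

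In WT mice fewer of the 10 genes passed the thresholds, and their median log2 fold change was -0.23 at day 1 and -0.34 at day 2, against -0.03 and -0.08 over all tested genes. At day 1 none passed both thresholds with limma, against 9.19% of 9028 genes in either direction. Fgb passed the p threshold upward, from 4989, 10615 and 15726 in saline to 6148, 13856 and 33109 in NDMA livers (0.55 ± 0.13, adjusted p = 0.0016), with 12 of 26 NDMA livers above the highest saline liver. Alb (-0.38 ± 0.11, adjusted p = 0.00882) and Apoa2 (-0.27 ± 0.10, adjusted p = 0.0477) passed it downward, 3 genes in all, against 21.1% of genes. Without the saline library that stood apart Trf did so too (-0.39 ± 0.12, adjusted p = 0.00969). The unadjusted p was under 0.05 for 6 of the 10, against 32.3% of genes. edgeR and DESeq2, the latter without sex and batch as terms, each called 1, against 9.59% and 9.4%. In the largest day 1 batch by itself (9 saline and 12 NDMA livers) Fgb was higher (0.71 ± 0.19, adjusted p = 0.0116) and Apob lower (-0.75 ± 0.19, adjusted p = 0.0067), 2 of 10 against 11.7% of genes. In another (8 and 8) Fgb was higher (0.65 ± 0.16, adjusted p = 0.00792) and Ttr (-0.63 ± 0.18, adjusted p = 0.0165) and Apoa1 (-0.75 ± 0.17, adjusted p = 0.00247) lower, 3 of 10 against 10.6%. In the third (4 and 6) no gene of the whole table was called by limma, 264 genes had an unadjusted p under 0.05, and the changes of the 10 ran from -0.31 to 0.20.

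Alb was the gene that was lower in WT mice at day 2, 1 of 10 against 2.91% of 8568 genes. It had 61606, 121239 and 144947 in saline and 49769, 57919 and 83480 in NDMA livers (-0.92 ± 0.15, adjusted p = 0.000979). 5 of 8 NDMA livers were below the lowest saline liver, and that saline liver itself stood well below the other 7, which had 112700 or more. Ahsg (-0.56 ± 0.13, adjusted p = 0.00937) and Serpina1c (-0.53 ± 0.15, adjusted p = 0.0372) were lower and Apoa2 (0.35 ± 0.10, adjusted p = 0.0467) higher by the adjusted p alone, which with Alb made 4 genes against 7.69%. Apoa2 had 35519, 51221 and 65795 in saline and 43557, 63609 and 93344 in NDMA livers, and Ttr had medians of 57882 and 55229.

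Trf in WT mice at day 2 rested on 1 library. It had 19773, 39323 and 41305 in saline and 12846, 20149 and 75919 in NDMA livers (-0.71 ± 0.28, adjusted p = 0.144), where 75919 is the library with 150038 reads. Without that library the NDMA range was 12846 to 22810 and Trf was lower (-0.98 ± 0.13, adjusted p = 3.18e-05), as were Alb (-0.91 ± 0.14, adjusted p = 0.000121) and Ahsg (-0.61 ± 0.11, adjusted p = 0.000294), 3 of 10 against 4.79% of genes, and Apoa1 (-0.51 ± 0.10, adjusted p = 0.000888) passed the p threshold alone. At day 5, week 10 and month 10 in WT mice 0 of 10 genes were called with limma, against 3.61%, 0.0249% and 0.0% of genes. The unadjusted p was under 0.05 for 5, 1 and 0 of the 10 at these times, against 17.9%, 4.35% and 8.18% of genes. edgeR called 1, 0 and 0 of them, against 7.01%, 0.0% and 0.0%. DESeq2, without sex and batch as terms, called none, against 4.81%, 0.0% and 0.0%. Without the library with few reads at day 5 again 0 were called, against 9.19% of genes, but Alb (-0.57 ± 0.18, adjusted p = 0.0406) and Serpina1c (-0.54 ± 0.17, adjusted p = 0.0347) passed the p threshold alone.

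Whether the response differed between genotypes was tested directly, as the Mgmt-/- change minus the WT change in limma fits of both genotypes. It differed for Ttr and Apoa2 at day 2 and day 5. The WT changes of Ttr were 0.01 at day 2 and 0.28 at day 5 and those in Mgmt-/- mice -0.76 and -0.56, with differences of -0.77 ± 0.16 (adjusted p = 0.00236) and -0.84 ± 0.16 (adjusted p = 0.00283). The changes of Apoa2 were 0.35 and 0.45 in WT and -0.63 and -0.37 in Mgmt-/- mice, with differences of -0.98 ± 0.14 (adjusted p = 7.63e-05) and -0.82 ± 0.19 (adjusted p = 0.0123). These are 2 of 10 genes at each time, against 6.06% of genes at day 2 and 2.12% at day 5, and both were also called on a common total for all libraries and without the libraries that stood apart. On the common total Fgb differed at day 2 as well, in the opposite direction (0.54 ± 0.16, adjusted p = 0.0306), 3 of 10 against 6.87% of genes. At day 2, day 5 and week 10 the genotypes came from different library batches, and a difference between genotypes cannot be told apart from one between batches.

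For Alb, lower in both genotypes at day 2, the difference was 0.23 ± 0.18 (adjusted p = 0.533), and at day 1 it was -0.45 ± 0.18 (adjusted p = 0.241). No member differed at day 1, where all 10 differences were negative, against 0.688% of genes, nor at month 10, against 0.911%, nor at week 10, against 4.44%, by limma. The unadjusted p was under 0.05 for 5, 1 and 2 members at day 1, month 10 and week 10, against 12.5%, 13% and 16.9% of genes. Serpina1c was nearest, with -0.80 ± 0.26 at day 1 (adjusted p = 0.112) and -1.11 ± 0.34 at week 10 (adjusted p = 0.0542). Without the libraries that stood apart 3 members differed at week 10, against 7.89% of genes, Serpina1c by -1.39 ± 0.24 (adjusted p = 0.000116), Apoa2 by -0.87 ± 0.20 (adjusted p = 0.00292) and Alb by -0.76 ± 0.23 (adjusted p = 0.0306). At day 2 without them 4 differed, against 9.97%, and the 2 that joined Ttr and Apoa2 were positive, Trf by 0.56 ± 0.18 (adjusted p = 0.0443) and Ambp by 0.53 ± 0.15 (adjusted p = 0.0162).

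**Figure D4:**
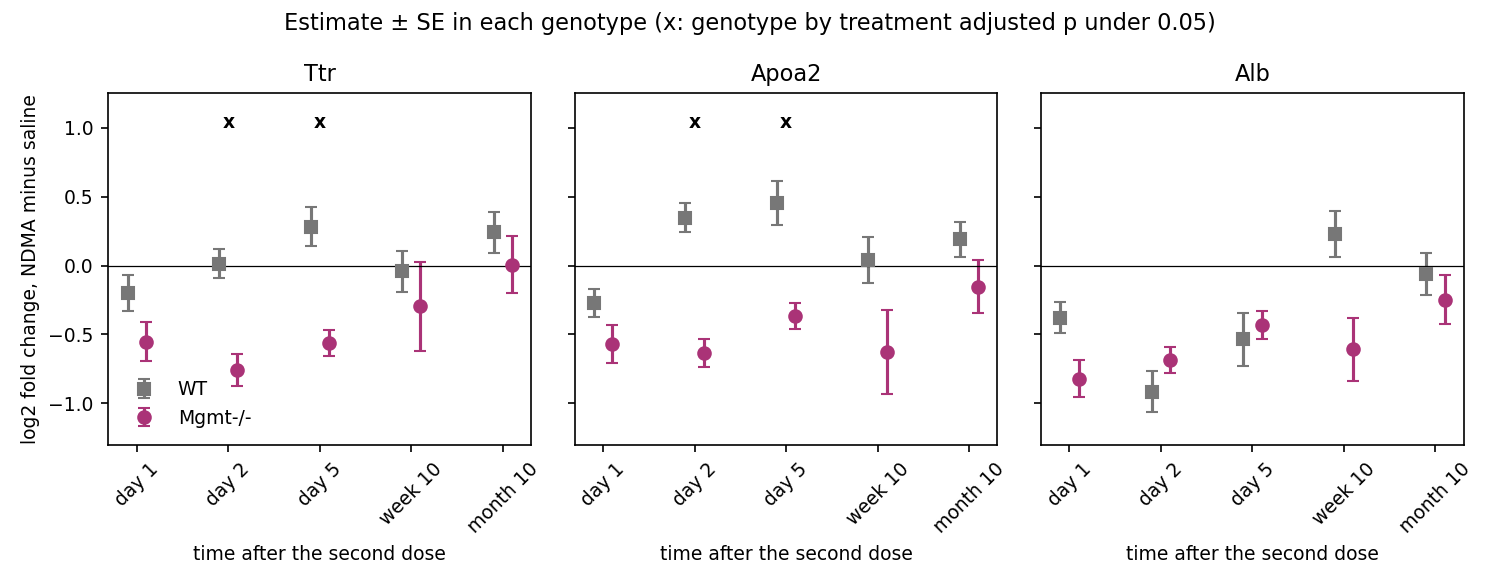
Log2 fold change, NDMA against saline, with its standard error, of Ttr, Apoa2 and Alb in WT and Mgmt-/- mice at the 5 times. Crosses mark times at which the genotypes differed with an adjusted p under 0.05. Ttr and Apoa2 lie near or above 0 in WT and below 0 in Mgmt-/- mice at day 2 and day 5, while Alb is below 0 in both genotypes at day 2, at -0.92 and -0.69.

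The scale of the counts matters for genes that make up this much of a library. When the libraries were brought to a common total, the median log2 fold change of all tested genes in Mgmt-/- mice moved from 0.02 to 0.20 at day 1, from 0.03 to 0.20 at day 2, from 0.03 to 0.17 at day 5 and from 0.04 to 0.24 at week 10. The share of genes higher and lower moved with it, from 9.06% and 8.64% to 16.2% and 5.06% at day 1. On that scale 3 of 10 were lower at day 1, Alb (-0.62), Apoa1 (-0.60) and Serpina1c (-0.79), against 5.06% of genes. At day 2 there were 2, Ttr (-0.59) and Serpina1c (-0.60), against 4.35%, at day 5 none, against 4.42%, and at week 10 Serpina1c (-0.80), against 1.81%. The lowest of the 10 changes at day 5 was -0.578, narrowly short of the fold threshold. In WT mice Alb at day 2 was lower (-0.83), against 2.11%, and Fgb at day 1 higher (0.59), against 5.76%. The called changes kept their direction between the scales.

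By share of the library, Alb gave the largest part of the Mgmt-/- difference at day 1 and day 2. At day 1 the difference in mean share, NDMA minus saline, was -1.68 percentage points for Alb, -1.18 for Apoa1, -0.976 for Ahsg, -0.943 for Ttr, -0.808 for Apoa2 and -0.773 for Trf, and 0.159 for Fgb. At day 2 it was -1.74 points for Alb, -1.37 for Ttr, -1.05 for Apoa2 and -0.892 for Apoa1. Serpina1c, with the largest fold change at day 1, had 0.323% of the library in saline livers and a difference of -0.121 points. In WT mice at day 2 the difference was -3.11 points for Alb and 1.05 for Apoa2.

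Mice carry several near-identical alpha-1-antitrypsin genes, side by side on chromosome 12, and 3′ reads may be split among them, so each of these values is uncertain. At day 1 in Mgmt-/- mice Serpina1a (-0.70), Serpina1b (-0.61), Serpina1c (-0.99) and Serpina1d (-0.91) were lower and Serpina1e was at -0.03 (adjusted p = 0.953). At day 2 Serpina1c was lower (-0.78) and Serpina1d by the adjusted p alone (-0.57, adjusted p = 0.000563), but Serpina1a (-0.07) and Serpina1b (-0.01) did not pass. Day 5 gave -0.73 for Serpina1c, -0.42 for Serpina1d (adjusted p = 0.0063), -0.03 for Serpina1a and 0.13 for Serpina1b. Serpina1e stood apart at day 1, and the values of the copies spread at day 2 and day 5. At week 10, when Serpina1c was lower, the other copies were at -0.44 (Serpina1a), -0.31 (Serpina1b), -0.68 (Serpina1d) and -1.01 (Serpina1e) and did not pass, and without D209001 Serpina1a (-0.59), Serpina1b (-0.63) and Serpina1d (-0.91) were lower as well. At month 10 Serpina1e was higher (1.81, adjusted p = 0.0292), which did not pass without D209016 and D209018 (1.46, adjusted p = 0.0731).

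Other secreted liver proteins were taken from fixed lists without the 10 genes. Of all tested genes in Mgmt-/- mice 8.64%, 7.5% and 6.71% were lower and 9.06%, 12.4% and 11.1% higher at the 3 early times. On a common total these shares were 5.06%, 4.35% and 4.42% lower and 16.2%, 17.7% and 15.6% higher. In Mgmt-/- mice 9 of 22 coagulation and fibrinolysis genes were lower and none higher at day 1, and the median of the list was -0.50 (log2 fold change) against 0.02 for all genes. On a common library total 5 of the 22 were lower and 1 higher. Klkb1 (-0.86), plasma prekallikrein, and F7 (-0.99), coagulation factor VII, were among them and were also lower at day 2 (-0.60 and -0.95) and day 5 (-0.72 and -1.01). Plg, plasminogen, was at -0.94 at day 1 and -0.80 at day 5. At day 2 there were 2 higher, Kng2 (0.80), a kininogen, and Pros1 (0.74), protein S, and 2 lower, and at day 5 3 lower. Of 18 protease inhibitors 9 were lower and 2 higher at day 1, and on a common total 4 were lower and 3 higher. At day 2 there were 2 of each, and at day 5 3 lower and 2 higher, or 1 lower and 2 higher on a common total. Itih1, a heavy chain that bikunin is joined to, was lower at each (-1.02, -0.82 and -1.04), and Serpina3n, an acute phase inhibitor, was higher at each (1.23, 1.61 and 1.60).

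Carriers and apolipoproteins moved both ways. Of 10 other carriers 3 were lower and 2 higher at day 1, with Serpina6 (-1.75), which binds corticosteroids, Afm (-1.20), a vitamin E carrier, and Rbp4 (-0.84), the retinol carrier that travels with Ttr, among the lower and Orm1 (3.37), an acute phase lipocalin, among the higher. Hpx, the heme scavenger hemopexin, was higher at day 2 (1.20) and day 5 (1.09). In the albumin family Afp, the fetal albumin, rose by 1.57 at day 1, 3.10 at day 2 and 2.93 at day 5, while Alb and Afm were lower at day 1 and, on the size-factor scale alone, at day 2. On a common total they were at -0.52 and -0.52 at day 2 and neither was called. Of 12 other apolipoprotein and lipoprotein genes 2 were higher at each of these times, Apoa4 (2.58, 2.01 and 3.25) and Apoc2 (1.13, 1.72 and 1.47), the cofactor of lipoprotein lipase. In the same list 4, 2 and 0 were lower, with Apoe, a ligand of lipoprotein receptors, at -0.87 at day 1 and -0.65 at day 2. On a common total 2, 1 and 0 were lower.

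Of 18 complement genes 4 were lower and 1 higher at day 1. At day 2 there were 2 lower and 4 higher, and at day 5 5 lower and 1 higher. On a common total 3, 2 and 3 were lower and 2, 5 and 1 higher at these times. Of all genes on that scale 5.06%, 4.35% and 4.42% were lower and 16.2%, 17.7% and 15.6% higher. C9, the pore-forming component, was higher at day 2 (1.30) and day 5 (0.93), and C8g, a chain of component 8, was lower at all 3 times (-0.94, -1.22 and -0.94). Of 23 genes for entry into and folding in the secretory pathway 1 was called by limma over these 3 times, Pdia6 (0.67), a disulfide isomerase, at day 2. On a common library total 3 of them were higher at day 1 and 4 at day 2, close to the 16.2% and 17.7% of all genes. Of 16 liver transcription factors 3 were lower and 2 higher at day 1, but on a common total none was lower and 3 were higher. Of the 15 tested at the next 2 times, 2 were lower and 1 higher at day 2 and 2 higher at day 5. Nr1i3, the xenobiotic receptor CAR, was lower at day 1 (-0.76, and -0.57 and not called on a common total) and day 2 (-0.82) and Dbp, a clock-controlled factor, higher at day 1 (1.06), day 2 (0.72) and day 5 (1.02).

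Hepatocyte markers outside the 10 genes and markers of other liver cells moved at the same times. Of 12 hepatocyte markers 6 were lower at day 1, 4 at day 2 and 4 at day 5, and none was higher. On a common total 5, 4 and 3 were lower. Their summed level had a median of 59915 in saline and 38599 in NDMA livers at day 1. The medians were 77615 and 45935 a day later and 116567 and 58184 at day 5, and no marker was at 0. Fabp1, the fatty acid-binding protein, was the most abundant, and Cyp2c29, a cytochrome P450, changed by -2.34 at day 1, -1.85 at day 2 and -1.79 at day 5. At day 2 the 8 NDMA livers had sums of 44121 to 60071 and the 7 saline livers of 70276 to 145838, with no overlap.

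Of the T and NK cell markers 4 of 5 tested genes were higher at day 1, 6 of 6 at day 2 and 6 of 6 at day 5, with a summed median of 53.0 in saline and 165 in NDMA livers at day 1. The medians were 59.7 and 370 a day later and 41.4 and 387 at day 5. Gzma, granzyme A, was their most abundant gene in NDMA livers and none of the 9 listed was at 0 throughout. Of 11 macrophage markers 2 were higher and 3 lower at day 1. At day 2 there were 6 higher, at day 5 7 higher, and none lower, with summed medians of 1065 in saline and 1612 in NDMA livers at day 2. Clec4f, a Kupffer cell lectin, led the list in saline livers, and Cd5l, a macrophage-secreted protein, in NDMA livers. Red cell precursor markers were lower, 6 of 6 at day 1 (4 on a common total), 3 of 6 at day 2 and 6 of 7 at day 5, with summed medians of 39164 and 22344 at day 1 and Hbb-bs, a beta globin, as the most abundant.

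Neutrophil markers, led by S100a8, had 4 of 6 lower at day 1, 3 lower and 1 higher at day 2, and 5 of 6 lower at day 5, with summed medians of 452 and 271 at day 1. Of 8 stellate cell and fibroblast markers 1 was higher at each of the 3 times, and 5, 4 and 3 were lower (2 at each on a common total), with summed medians of 1110 and 742 at day 1 and Dcn, a matrix proteoglycan, as the most abundant. Of 8 endothelial markers, led by Clec4g, 4, 1 and 2 were lower and 1, 2 and 2 higher at the 3 times, with summed medians of 586 and 441 at day 1. B and plasma cell markers had 1 of 3 lower at day 1, and none of 2 was called at day 2 or day 5. In the cholangiocyte list of 7 genes Spp1 changed by -0.79 at day 1, where 2 were tested, and -1.41 at day 5, where 1 was. The part of these cells in the change of the 10 genes was not tested.

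At week 10 in Mgmt-/- mice, when Serpina1c was lower, 2 of 12 hepatocyte markers were lower, Cyp2c29 (-1.62) and Fabp1 (-1.21), with summed medians of 116218 in saline and 54682 in NDMA livers. Afp was still higher there (2.30). Of 11 macrophage markers 6 were higher, with summed medians of 870 and 1381, and of 8 stellate cell and fibroblast markers 4 were higher, led in size by Col1a1 (2.39), a chain of type I collagen, with summed medians of 428 and 713. Spp1, osteopontin, was also higher (3.13), 1 of the 2 genes tested among 7 listed cholangiocyte markers. The summed median of that list was 86.9 in saline and 830 in NDMA livers. Neutrophil markers had 2 of 5 higher (summed medians 73.7 and 191), B and plasma cell markers 1 of 2 (13.8 and 32.6) and T and NK cell markers 1 of 4 (22.4 and 45.1). Of 16 liver transcription factors 5 were lower, among them Nr1i3 (-1.20), Dbp (-1.07) and Ppara (-0.96), a receptor for fatty acids, and none was higher. On a common total 3 of these factors were lower, and 8 macrophage, 6 stellate cell and 4 neutrophil markers were higher. Of all tested genes 3.88% were lower and 7.27% higher at this time on the size-factor scale, and 1.81% and 11.9% on a common total. Without D209001 there were 3 of 12 hepatocyte markers lower, with Cyp2c29 at -1.68 and Fabp1 at -1.39, 4 transcription factors lower, and 6 macrophage, 4 stellate cell and 1 neutrophil markers higher. The protease inhibitors then had 5 of 18 lower, where none was with the library, against 4.89% of genes lower and 8.92% higher. Their part in the Serpina1c result was not tested.

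At month 10 in Mgmt-/- mice, when Apoa1 was higher, 4 of 11 macrophage markers were higher, with summed medians of 553 in saline and 801 in NDMA livers and Cd5l as the most abundant. Of 9 stellate cell and fibroblast markers 3 were higher and 1 lower, Col1a1 (1.66) and Reln (-0.74) among them, with summed medians of 595 and 598. Spp1 was higher (2.48), 1 of the 2 genes tested among 7 listed cholangiocyte markers, with summed medians of 87.0 and 366. Of 12 hepatocyte markers 1 was lower, Cyp2c29 (-0.81), with summed medians of 54951 and 39319. Of all tested genes 4.75% were higher and 2.99% lower. Without D209016 and D209018 there were 2 macrophage markers higher and 2 hepatocyte markers lower, and the stellate cell counts were 3 and 1. The part of these cells in the Apoa1 result was not tested.

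The same lists were taken in WT mice, where the share of all tested genes that were lower was 4.19% at day 1, 2.91% at day 2 and 1.39% at day 5, and the share higher 5.01%, 3.33% and 2.22%. Of the 22 coagulation and fibrinolysis genes 1 was lower at day 1, F5 (-0.75), coagulation factor V. At day 2 there were 8 lower, among them F2 (-0.96), prothrombin, and Serpinc1 (-0.73), antithrombin, and at day 5 there were 3, Klkb1 (-0.75), Plg (-0.72) and Fgg (-0.69), the fibrinogen gamma chain. Of 18 protease inhibitors 2 were higher at day 1, Serpina3k (1.26) and Serpina3n (1.08), and 3 lower at day 2, Itih1 (-1.18), Itih2 (-1.02) and Pzp (-0.90).

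Of the 12 other apolipoprotein and lipoprotein genes in WT mice 2 were higher at day 1, and 4 were higher and 1 lower at day 2. Apoa4 (1.65 and 1.58) and Apoc2 (0.75 and 1.61) were higher at both times, and the lower gene was Mttp (-0.92), which loads lipid onto Apob. Of 10 other carriers 1 was higher at each time, Orm1 (2.18 and 2.33), while 1 was lower at day 1 and 3 at day 2. The lower carriers were Serpina6 (-1.11 and -1.38) at both times and Serpina7 (-1.06), which binds thyroxine, and Afm (-0.94) at day 2. Of 18 complement genes 1 was higher at day 1, Mbl2 (1.03), a mannose-binding lectin, and 3 were lower at day 2, Masp1 (-0.79) and C3 (-0.78) among them.

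Of the 12 hepatocyte markers 1 was higher in WT mice at day 1, Hal (0.60), a histidine-degrading enzyme. At day 2 there were 4 lower, with summed medians of 59555 and 49657, and at day 5 3 lower, Cyp2c29 (-1.21) among them. Of 8 stellate cell and fibroblast markers 4 were lower and 1 higher at day 1, Reln (-1.90) and Acta2 (1.01) among them. T and NK cell markers were higher, 4 of 5 at day 1 and 3 of 5 at day 2, with summed medians of 57.5 and 140 at day 2, and their part in the Alb result was not tested. Without the WT saline library that stood apart at day 1, 2 hepatocyte markers were lower and 1 higher. Of 22 coagulation genes 2 were then lower, and of 18 protease inhibitors 1 was lower and 2 higher. Of all genes 4.42% were lower and 5.48% higher in that setting. Without the libraries with few reads the share of all genes that were lower was 4.79% at day 2 and 3.7% at day 5, and the share higher 5.39% and 5.48%. Among the lower genes at day 2 were then 9 coagulation genes, 6 protease inhibitors, 4 complement genes, 3 carriers, 2 apolipoprotein genes, 2 secretory pathway genes, 5 hepatocyte markers and 4 of 6 neutrophil markers, the last from none. Among the higher genes at day 2 were 4 of 5 T and NK cell markers, 3 apolipoprotein genes, 2 secretory pathway genes, 1 carrier and 1 complement gene. The lower genes at day 5 included 7 coagulation genes, 6 protease inhibitors, 4 complement genes, 4 hepatocyte markers and 2 stellate cell markers. They also included 4 of 23 secretory pathway genes, in place of 1 of these 23 with the library. Complement and secretory pathway genes had 1 higher each at day 5. Macrophage markers then had 4 higher in place of 1, and T and NK cell markers 3 of 6 higher.

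Several of the 10 genes differed between ages in saline livers. In WT saline livers of the same 2 batches, the median of Ahsg was 9.35-fold lower at month 10 than at day 2 (55011 and 5887 normalized counts). Apoa1 was 5.39-fold, Trf 2.91-fold, Fgb 2.81-fold and Ttr 2.72-fold lower, and none of these genes overlapped between the 8 younger and 7 older livers. Apob went the other way, from 421, 726 and 1177 at day 2 to 1846, 2790 and 3586 at month 10, a 3.84-fold higher median with no overlap. Alb, Apoa2, Serpina1c and Ambp overlapped between these ages. So 6 of the 10 did not overlap, against 24.5% of 9232 genes.

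In Mgmt-/- saline livers of 1 batch, 4 at day 1 and 12 at month 10, Ahsg was 4.85-fold, Apoa1 3.68-fold and Ttr 3.57-fold lower and Apob 3.77-fold higher at month 10, each without overlap, which made 4 of 10 against 26.1% of 10070 genes. The other 6 genes overlapped between these ages, and among them the medians of Trf and Fgb were 1.08-fold and 1.68-fold lower and that of Alb 1.51-fold higher at month 10. These are comparisons of medians between ages, with no test.

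The genes whose group means were most like the mean profile of the 10 were ranked over 20 groups (2 genotypes, each centred on its own mean, 2 treatments and 5 times) by Pearson's r among 4924 genes. The highest were Apoh (r = 0.97), a phospholipid-binding plasma protein, Acy1 (0.96), an aminoacylase, Serpina1a (0.96), Yif1b (0.96), Fggy (0.95), Lrpap1 (0.95), a chaperone of lipoprotein receptors, Ndufv1 (0.95), a subunit of respiratory complex I, and Mrpl2 (0.95), a mitochondrial ribosomal protein. Among the 10 themselves r ran from 0.96 for Trf to 0.54 for Alb, and it was -0.75 for Apob, so Apob did not follow the others across the groups. The group means share batches and collection ages, and r is given as a description.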

How the data were processed

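Liver polyA RNA was measured by 3′ digital gene expression in 214 labelled libraries, of which 213 had values. The authors aligned reads with STAR to GRCm38/mm10, counted them per gene with ESAT and deposited a normalized signal, gene counts divided by DESeq2 size factors, with each genotype in its own table (versions are not given in the sources used here). All values were whole multiples of 1 step, within 0.1 of a step, in 209 libraries, which gave whole reads for tests on counts. The 4 others were left out of those tests. Values were tested with limma 3.58.1 (trend, robust, R 4.3.3) on log2(value + 1) for genes with a mean of at least 5, with sex and batch as terms and Benjamini-Hochberg adjusted two-sided p-values. Genes were called at an adjusted p under 0.05 with a log2 fold change beyond 0.58. Genotype by treatment terms used the joined tables and the adjusted p alone. Alternatives were pseudocounts of 0.5 and 5, no minimum or a mean of 20, treatment alone, the same total with and without the 10 genes, edgeR 4.0.16, DESeq2 1.42.0, single batches and left-out libraries. The DESeq2 fits had treatment alone, without sex and batch as terms. Whole litters were given 1 treatment, per the study's methods, with mice of different litters used where this could be done, and the labels tie no mouse to a litter. Named genes were the 10, the 4 or fewer called genes with the largest changes of each list, and the 8 with the most similar profile. The genes, lists and tests were chosen with earlier results of these data known. The fits were tested on simulated data. Summaries used pandas 2.3.3 and numpy 2.4.6 in Python 3.11.15, and plots matplotlib 3.10.9.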

Additional observations from a re-analysis of the deposited data

Results flagged for a closer look

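A library counts here as far from its group where its gap to the nearest of the others was over a set part of the range of the group (Dixon's 95% value), which marked 21 of 143 tests (14.7%), where chance marks about 1 in 20. These are 11 measures (the 10 genes and their summed share) in 13 groups of 4 to 10 libraries, so they share libraries, and the larger groups were not tested. No explanation was tested.

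In WT saline livers at day 2, D215004 had Alb at 61606 normalized counts (the others 112700 to 144947) and Trf at 19773 (36607 to 41305). The WT NDMA libraries with few reads were high. D215006 at day 2 had Apoa1 at 58985 (the others at most 36465), Trf at 75919 (at most 22810) and Ambp at 8141 (at most 4130). D215014 at day 5 had Apoa1 at 71553 (at most 40061), Trf at 68012 (at most 28038) and Ambp at 7460 (at most 3290). D215022 at week 10 had Trf at 82109 (at most 27778), Ambp at 7687 (at most 4156) and 23.8% of its counts in the 10 genes (at most 18.2%). Fgb was high in 1 WT liver of each treatment at week 10, at 25558 in D202018 (saline, the others at most 14672) and 24345 in D215023 (NDMA, the others at most 13494).

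In Mgmt-/- mice, D209001 (saline, week 10) had Ttr at 12837 (the others 61143 to 100450), Apoa2 at 17101 (74938 to 101760) and Apob at 3219 (800 to 1005). The NDMA liver D209032 at week 10 had Apoa2 at 73345 (the others at most 52053). At day 2 the saline liver D389035 had Apoa2 at 76774 (90077 or more). At day 5 the saline liver D389048 had Apoa1 at 137875 (the others at most 94208) and Ambp at 7404 (at most 5867), and the NDMA liver D389090 had Alb at 149832 (at most 110381).

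The response to NDMA differed between the genotypes by the limma term for Ttr (-0.77 at day 2 and -0.84 at day 5) and Apoa2 (-0.98 and -0.82), given as the Mgmt-/- minus the WT log2 fold change.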

How the results depend on the processing

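Each count is of the 10 genes called, and the cause of a move was not tested unless the setting itself shows it. On a common total for all libraries, 3 were lower in Mgmt-/- mice at day 1, 2 at day 2 and 0 at day 5 (against 5.06%, 4.35% and 4.42% of genes). In WT 1 was higher at day 1 (5.76%), and 3 differed between genotypes at day 2 and 1 at week 10 (against 6.87% and 5.9% of genes). Without the fold threshold 5 were lower in Mgmt-/- mice at day 5 and 2 higher at month 10 (against 9.32% and 5.28% of genes). In WT 3 were called either way at day 1 and 4 at day 2 (against 21.1% and 7.69%). edgeR called 6 in Mgmt-/- mice at day 1, 2 at day 5 and 2 at month 10 (against 16.1%, 17.7% and 7.61% of genes), and in WT 1 at day 1, 2 at day 2 and 1 at day 5 (against 9.59%, 6.6% and 7.01%). DESeq2 was run with treatment alone, so both the tool and the terms differ from the limma fits. It called 2 in Mgmt-/- mice at day 5, 3 at week 10 and 2 at month 10 (against 19.1%, 13% and 7.79%), and 1 in WT at day 1 (9.4%). At month 10 in Mgmt-/- mice 0 were called with no minimum on values (against 4.93% of genes), with treatment alone (5.68%), and without the 2 libraries that stood apart (6.55%). Treatment alone gave 4 in Mgmt-/- mice at day 1 (against 7.23% of genes lower), where Trf was lost, and the same total without the 10 genes gave 3 at day 2 (6.14%), where Apoa2 was lost. The genotype by treatment term at week 10 gave 1 with a pseudocount of 5 and 1 with a mean of at least 20, against 5.4% and 6.57% of genes. By batch, 0 of 10 were called in the smaller Mgmt-/- day 1 batch (4 mice a treatment), where Alb was at -0.83 (against 5.5% of genes). In the 3 WT day 1 batches 3, 2 and 0 were called, against 10.6%, 11.7% and 0.0% of genes.

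Leaving out the libraries that stood apart, chosen after seeing the data, gave 3 lower at week 10 in Mgmt-/- mice, against 4.89% of genes. At month 10 it gave 0, against 6.55% of genes called either way. For the genotype by treatment term it gave 4 at day 2 and 3 at week 10, against 9.97% and 7.89%. Without libraries under 300000 reads 3 were lower in WT at day 2, against 4.79% of genes. With the kidney libraries included, 0 were called in Mgmt-/- mice at day 5 (against 10.3% of genes) and 0 differed between genotypes (0.867%), and the log2 fold changes reversed to 1.80 (Alb), 1.78 (Apoa2), 1.56 (Serpina1c), 1.56 (Trf) and 0.95 (Ttr). No paired analysis was possible because the replicate numbers of the labels are unique to each mouse. Of the single-gene values, 258 kept their side of the threshold and 41 lost it with the same direction. Shallow WT libraries limit what can be read at day 2 and later, and a count that misses the threshold does not show that levels were equal.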
